A study of Mus musculus with 15 samples.

Results

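The AP-1 and EGR immediate early factors were read as 10 genes, the FOS family members Fos, Fosb, Fosl1 and Fosl2, the JUN family members Jun, Junb and Jund, and the EGR zinc finger genes Egr1, Egr2 and Egr3. They were chosen by symbol, not by their values, from the 55341 genes of a count table, and all 10 were among the 13085 genes with enough counts to test. The cells were 6DT1, a mammary cancer line from mice of the FVB/N1 background. Grouping by genotype and oxidant gave 3 libraries of CLIC4-knockout cells after 24 h with 1 µM H2O2, 4 of untreated CLIC4-knockout cells, 4 of wild-type cells after the same H2O2 exposure and 4 of untreated wild-type cells. The labels give neither the number of knockout clones nor whether replicates were separate cultures, so p-values measure the spread between these samples, which may be technical.

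AP-1 is a dimer of basic leucine zipper proteins. JUN proteins pair with each other or with a FOS protein, FOS proteins typically need a JUN partner, and the dimers bind short palindromic sites in promoters and enhancers. EGR proteins are zinc finger factors that bind GC-rich sites and are held back by the NAB corepressors. Transcripts of Fos, Fosb, Egr1 and their relatives are made within minutes of growth factor, stress or adhesion signals, through MAP kinases and the serum response factor SRF, and are short-lived. Fosl1, by contrast, accumulates under lasting ERK signalling and is often abundant in invasive mammary cancer cells. A 24 h exposure falls well after the usual peak of an immediate early response.

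The libraries held 12.3 to 16.0 M counts each. Clic4 averaged 71.3 ± 4.92 CPM in untreated knockout cells and 321 ± 5.05 CPM in untreated wild-type cells (counts per M reads, scaled by TMM, SD, n = 4 each), a log2 difference of −2.17 (edgeR's quasi-likelihood test with Benjamini-Hochberg adjustment, adjusted p = 9.88e-26). Untreated wild-type replicate 9 carries a knockout entry in its genotype field but a wild-type title, and its Clic4 level was that of the wild type. It also held 24.9 CPM summed over 10 immune and blood markers, while no other library exceeded 1.31 CPM. Fits that leave this library out are given below, and the part of such transcripts in any result was not otherwise tested. Among 8 mammary epithelial markers, Krt8 stood at 610 to 681 CPM, whereas Krt7, Epcam, Cdh1 and Cldn7 were under 1 CPM in every library. The other 3 moved with genotype. Krt18 averaged 153 CPM in untreated knockout cells and 334 CPM in untreated wild-type cells (log2 −1.12), Krt19 averaged 156 CPM in untreated knockout cells and 54.2 CPM in untreated wild-type cells (log2 1.52), and Elf3 averaged 4.48 CPM in untreated knockout cells and had 0 reads in all wild-type libraries. Their part in the members' differences was not tested. Summed fibroblast markers ran from 11.3 to 14.0 CPM in untreated knockout cells, against 19.8 to 22.4 CPM in untreated wild-type cells, and their part in the genotype differences was not tested.

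Per unit of gene length, as set in the authors' deposited values, the 10 transcripts spanned a wide range of abundance, and Fosl1 led in every group. The lengths behind these values are not given in the sources used here. For Jun and Jund, each with 1 transcript, they do not equal the annotated 3189 and 1668 bases. Orders, shares and ratios between genes depend on these lengths. In untreated knockout cells the mean level was 31.6 RPKM (reads per kilobase of gene per M counts) for Fosl1, 21.2 for Junb, 16.2 for Jund, 11.6 for Fosl2 and 9.02 for Jun. The other members were far lower, with 1.34 RPKM for Egr3, 1.17 for Egr2, 0.537 for Fosb, 0.366 for Fos and 0.166 for Egr1. In that order only the neighbours Junb and Jund, Egr3 and Egr2, and Fosb and Fos overlapped between libraries.

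In untreated wild-type cells the order was Fosl1 at 25.2 RPKM, Jund at 16.4, Fosl2 at 15.2, Junb at 14.0 and Jun at 6.96. Below these came Egr3 at 0.417, Fosb at 0.312, Egr2 at 0.207, Fos at 0.142 and Egr1 at 0.0400 RPKM. Here Jund and Fosl2, Fosl2 and Junb, Egr3 and Fosb, and Fosb and Egr2 overlapped. Among all tested genes, 86.2% stood below Fosl1 per unit length in untreated knockout cells and 82.5% in untreated wild-type cells. Egr1, at the other end, exceeded 4.94% of tested genes in untreated knockout cells and 0.991% in untreated wild-type cells. Precision for Egr1 and Fos was therefore set by their small counts, 2 to 18 for Egr1 and 5 to 25 for Fos in any untreated library.

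Loss of CLIC4 without oxidant went with higher levels of 8 of the 10 members and a lower level of Fosl2, while Jund did not pass the test. Over all tested genes, 66.8% passed the same threshold of adjusted p below 0.05, 33.9% higher and 32.9% lower, so a changed member was by itself the usual case. At least 1.5-fold higher were 6 members, Fos, Fosb, Junb, Egr1, Egr2 and Egr3, against 12.5% of all tested genes. Libraries of the genotypes did not overlap for 7 members, 6 higher and 1 lower, against 58.5% of all tested genes, 29.9% higher and 28.5% lower. The median log2 difference was 0.73 over the members and 0.00 over all tested genes. Fos and Egr1 had at most 8 reads in any wild-type library and were removed by the low-count filter when wild-type libraries were fitted alone, so they passed it through the knockout groups. These counts and medians, and the genotype differences of Fos and Egr1 themselves, are therefore descriptions and support nothing. In a bulk sample, a change in the share of cells that make a transcript cannot be told apart from a change in its amount per cell.

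**Figure D1:**
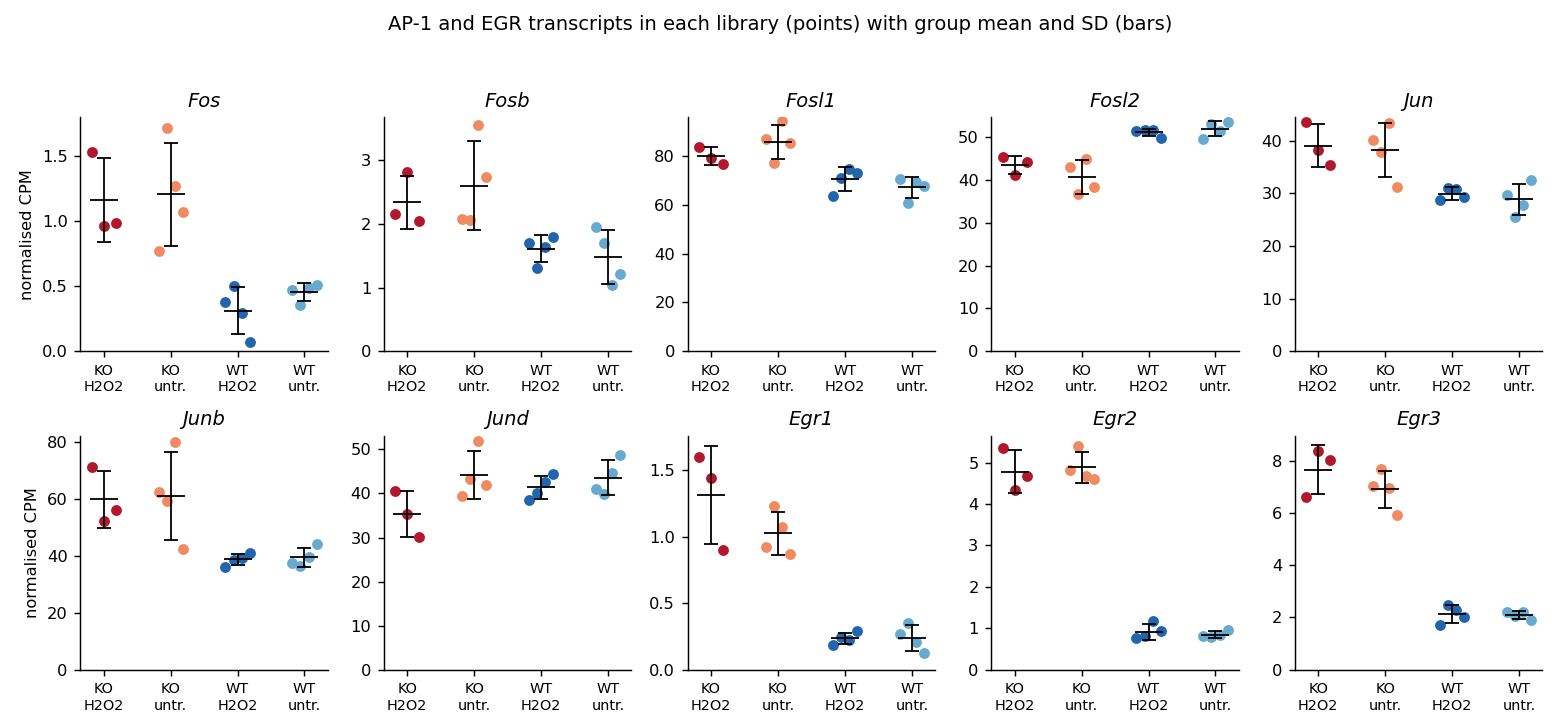
Levels of the 10 members in normalised CPM (vertical axes, linear, starting at 0) in each library (points), with the group mean and SD (bars), for H2O2-treated and untreated knockout cells and H2O2-treated and untreated wild-type cells. All untreated knockout points lie above all untreated wild-type points for Fos, Fosb, Fosl1, Egr1, Egr2 and Egr3, and below them for Fosl2.

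The EGR genes showed the widest differences of the members. Egr2, a zinc finger factor known for its roles in myelination and lymphocyte control, had 4.82, 5.41, 4.68 and 4.61 CPM in the untreated knockout libraries, against 0.810, 0.779, 0.835 and 0.957 CPM in those of untreated wild-type cells. Every knockout library was above every wild-type library, and the spread within each genotype was narrow. The log2 difference was 2.51 (SE 0.183, edgeR's quasi-likelihood test with Benjamini-Hochberg adjustment, adjusted p = 1.26e-12), and 4.56% of tested genes differed more in size. As summed counts, 285 reads in knockout against 50 in wild-type libraries gave a ratio of 5.75 with a 95% exact interval of 4.25 to 7.93, which covers counting error only.

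Egr3, a close relative of Egr2 with which it shares targets, had 7.05, 7.67, 6.96 and 5.94 CPM in the untreated knockout libraries, against 2.23, 2.05, 2.23 and 1.91 CPM in those of untreated wild-type cells. The groups were apart by more than the range of either. The log2 difference was 1.71 (SE 0.145, edgeR's quasi-likelihood test with Benjamini-Hochberg adjustment, adjusted p = 2.86e-11).

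Egr1, the founding EGR gene and a classic serum-induced factor, had 0.919, 1.23, 1.08 and 0.868 CPM in the untreated knockout libraries, against 0.270, 0.354, 0.209 and 0.128 CPM in those of untreated wild-type cells. The knockout libraries were all higher, on few reads. In total 60 reads in knockout libraries stood against 14 in wild-type libraries, a ratio of 4.33 with a 95% exact interval of 2.39 to 8.38. The fitted log2 difference was 2.07 (95% interval 1.32 to 2.82), given as a description. Egr1 lies on chromosome 18 (34859823 to 34864984, mm10, 2 exons), Egr2 on chromosome 10 (67535475 to 67542188, 2 exons) and Egr3 on chromosome 14 (70077203 to 70082614, 2 exons), all on the plus strand in GENCODE M21.

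Summed per unit length, the 3 EGR transcripts came to 2.68 ± 0.231 RPKM in untreated knockout cells and 0.665 ± 0.0243 RPKM in untreated wild-type cells (SD, n = 4 each). Egr2 made up 43.8% of that sum in untreated knockout cells and 31.3% in untreated wild-type cells. Egr3 was the largest component in both, and Egr1 stayed near 6% (6.20% in untreated knockout cells and 5.99% in untreated wild-type cells).

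Among the FOS genes, the inducible pair Fos and Fosb was higher in knockout cells. Fos, the partner of JUN in the classic AP-1 dimer, had 0.766, 1.71, 1.27 and 1.07 CPM in the untreated knockout libraries, against 0.473, 0.354, 0.487 and 0.510 CPM in those of untreated wild-type cells. The groups did not overlap, although the lowest knockout library had only 10 reads. The summed counts of 71 in knockout and 27 in wild-type libraries gave a ratio of 2.65 with a 95% exact interval of 1.68 to 4.30. The fitted log2 difference was 1.39 (95% interval 0.67 to 2.11), likewise a description.

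Fosb, which encodes a FOS protein with a truncated and long-lived splice form, had 2.07, 2.05, 3.54 and 2.74 CPM in the untreated knockout libraries, against 1.96, 1.70, 1.04 and 1.21 CPM in those of untreated wild-type cells. The groups were separated by a small margin, since the lowest knockout library lay just above the highest wild-type library. Its log2 difference was 0.82 (SE 0.227, edgeR's quasi-likelihood test with Benjamini-Hochberg adjustment, adjusted p = 0.00223). Gene counts do not tell its splice forms apart.

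The abundant pair Fosl1 and Fosl2 moved in opposite directions. Fosl1, which encodes FRA-1, had 86.9, 77.0, 94.1 and 85.1 CPM in the untreated knockout libraries, against 70.6, 60.8, 69.3 and 67.5 CPM in those of untreated wild-type cells. Fosl2, which encodes FRA-2, had 43.1, 36.6, 44.9 and 38.3 CPM in the untreated knockout libraries, against 49.6, 53.1, 51.5 and 53.6 CPM in those of untreated wild-type cells. Neither gene's groups overlapped, with knockout libraries above for Fosl1 and below for Fosl2. The log2 differences were 0.36 for Fosl1 (SE 0.0585, adjusted p = 9.76e-06) and −0.35 for Fosl2 (SE 0.0559, adjusted p = 3.02e-06), both from edgeR's quasi-likelihood test with Benjamini-Hochberg adjustment. Both were slightly above the median size over all tested genes, 0.30 on the log2 scale. Of tested genes, 43.4% differed more than Fosl1 and 43.8% more than Fosl2.

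The make-up of the FOS family shifted more than its total. The summed level was 44.1 ± 3.71 RPKM in untreated knockout cells and 40.9 ± 1.25 RPKM in untreated wild-type cells (SD, n = 4 each). Fosl1 made up 71.6% ± 0.677 of the sum in untreated knockout cells and 61.7% ± 2.17 in untreated wild-type cells (SD, n = 4 each), while Fosl2 made up 26.3% in untreated knockout cells and 37.1% in untreated wild-type cells. The ratio of Fosl1 to Fosl2 per unit length ran from 2.60 to 2.87 in untreated knockout libraries, against 1.48 to 1.84 in untreated wild-type libraries, and the ranges did not overlap. Fos and Fosb remained minor, with 0.844% and 1.21% of the sum in untreated knockout cells, against 0.346% and 0.765% in untreated wild-type cells.

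In the JUN family, Junb and Jun were higher in knockout cells and Jund was not called. Junb, which can restrain the activity of JUN in some settings, had 62.5, 59.1, 80.0 and 42.5 CPM in the untreated knockout libraries, against 37.6, 36.6, 39.7 and 44.1 CPM in those of untreated wild-type cells. The groups overlapped because knockout replicate 4, at 42.5 CPM, lay below the highest wild-type library. The log2 difference was 0.63 (SE 0.167, edgeR's quasi-likelihood test with Benjamini-Hochberg adjustment, adjusted p = 0.00544).

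Jun, the founding AP-1 gene, had 40.2, 37.9, 43.5 and 31.3 CPM in the untreated knockout libraries, against 29.6, 25.4, 27.8 and 32.6 CPM in those of untreated wild-type cells. Again knockout replicate 4 was the one library inside the wild-type range. The log2 difference was 0.40 (SE 0.0911, edgeR's quasi-likelihood test with Benjamini-Hochberg adjustment, adjusted p = 0.000702).

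Jund, a JUN gene that most cells express without stimulation, had 39.4, 43.3, 52.0 and 41.9 CPM in the untreated knockout libraries, against 41.0, 39.9, 44.7 and 48.8 CPM in those of untreated wild-type cells. The groups overlapped almost completely. The log2 difference was 0.02 with a 95% interval of −0.18 to 0.22 (edgeR's quasi-likelihood test with Benjamini-Hochberg adjustment, adjusted p = 0.860).

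With Junb called higher and Jund not called, the order of this pair differed between genotypes. Per unit length, Junb exceeded Jund in 3 of 4 untreated knockout libraries and in 0 of 4 untreated wild-type libraries. The ratio of Junb to Jund ran from 0.961 to 1.50 in untreated knockout libraries, against 0.841 to 0.870 in untreated wild-type libraries. Junb made up 45.2% ± 4.15 of the summed JUN level in untreated knockout cells and 37.6% ± 0.394 in untreated wild-type cells (SD, n = 4 each).

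**Figure D2:**
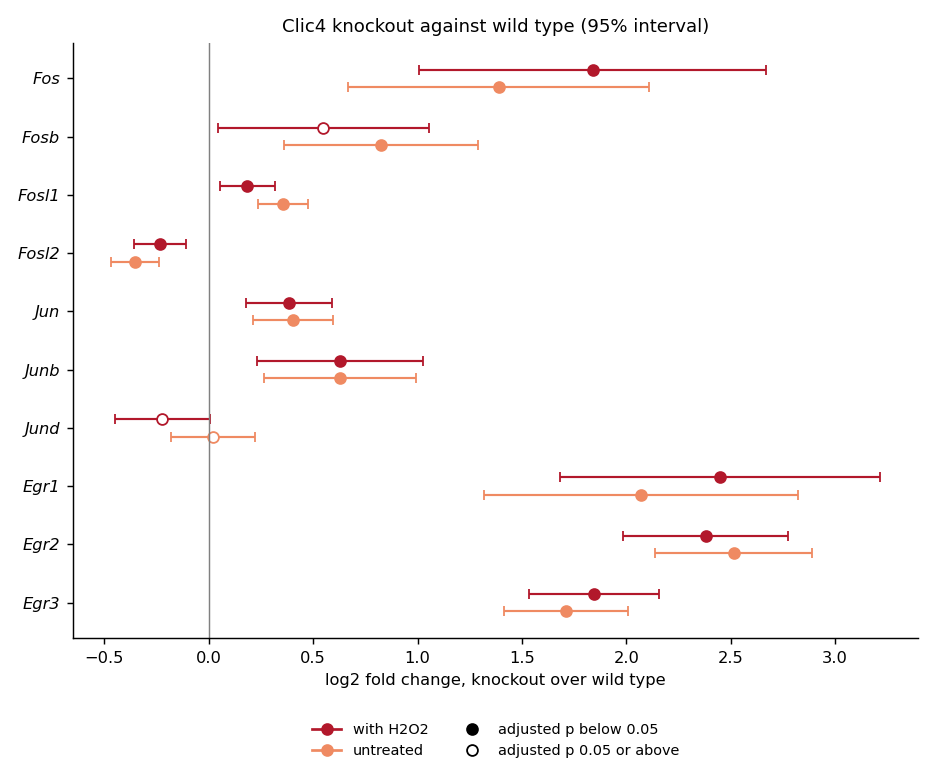
Log2 fold change of knockout over wild type for each member (horizontal axis, points, with 95% intervals) without oxidant and with H2O2, filled where the adjusted p was below 0.05. Egr2 lies at 2.51 untreated and 2.38 with H2O2, Fosl2 is the one member called lower in both conditions, and Jund is open in both.

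Several members share their locus with another transcript. The gene models on mm10 in GENCODE M21 place Fos on chromosome 12 (85473890 to 85477273, plus strand, 4 exons), Fosb on chromosome 7 (19302696 to 19310051, minus strand, 4 exons) and Fosl2 on chromosome 5 (32135801 to 32157842, plus strand, 4 exons). Fosl1 lies on chromosome 19 (5447547 to 5455946, plus strand, 4 exons), overlapped on the other strand by Ccdc85b. Jun is a 1-exon gene on chromosome 4 (95049034 to 95052222, minus strand), overlapped by the antisense gene Junos. Junb lies on chromosome 8 (84974484 to 84978718, minus strand, 1 exon), overlapped on the other strand by Prdx2, and Jund on the same chromosome (70698949 to 70700616, plus strand, 1 exon), overlapped by Gm11175. The library kit kept strand, but whether the counting used it is not given in the sources used here, and without strand the reads of such pairs cannot be told apart. Prdx2, with 1674 to 2069 reads a library, differed between untreated genotypes by a log2 value of 0.14, against 0.63 for Junb. Junos had 16 to 33 reads a library and a log2 difference of −0.04.

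Promoter windows of the 250 bases before a transcription start were held for 7 of the 10 members, from RefSeq on GRCm38.p6. They were searched on both strands for the AP-1 site TGACTCA, the cyclic AMP element TGACGTCA, its variant TGACATCA, the EGR site GCGTGGGCG, the CArG box that SRF binds, and the MEF2 site. The windows of Egr2, Jun and Fos are shown because Egr2 had the widest genotype difference without oxidant and Jun and Fos encode the classic AP-1 pair. Capitals mark motif matches, 1 CArG box in Egr2 and, in Jun, the variant element followed by the MEF2 site, with no overlap between matches.
Egr2, chr10:67537619-67537868, plus strand: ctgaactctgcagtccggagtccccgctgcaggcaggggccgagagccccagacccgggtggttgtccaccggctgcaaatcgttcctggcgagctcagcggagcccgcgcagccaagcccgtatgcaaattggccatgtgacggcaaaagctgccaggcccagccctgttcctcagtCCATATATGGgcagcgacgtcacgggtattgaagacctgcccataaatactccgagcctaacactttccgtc
Jun, chr4:95052223-95052472, minus strand: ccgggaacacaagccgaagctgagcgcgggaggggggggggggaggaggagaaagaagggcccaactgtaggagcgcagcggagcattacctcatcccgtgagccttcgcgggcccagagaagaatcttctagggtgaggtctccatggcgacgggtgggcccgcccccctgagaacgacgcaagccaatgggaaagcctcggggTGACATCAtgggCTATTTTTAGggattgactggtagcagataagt
Fos, chr12:85473640-85473889, plus strand: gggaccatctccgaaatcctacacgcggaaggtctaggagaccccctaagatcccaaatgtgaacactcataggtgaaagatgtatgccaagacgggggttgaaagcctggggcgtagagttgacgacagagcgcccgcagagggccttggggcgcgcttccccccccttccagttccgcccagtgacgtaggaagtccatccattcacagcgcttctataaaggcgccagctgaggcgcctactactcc

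The CArG box shown for Egr2 began 72 bases before the start, and 4 of the 5 Egr2 windows held one. Of these, 3 overlap one another and hold the same box, so the windows hold 2 distinct boxes. Over all 32851 mouse windows of that length, 1.47% held a CArG box, 2.93% the variant TGACATCA and 0.508% the MEF2 site. In Jun the variant element began 45 bases and the MEF2 site 33 bases before the start. The variant was searched as the known AP-1-like site of Jun, so its match there was fixed in advance and is no result. The CArG box and MEF2 site belong to factors listed beforehand as upstream of the members, so their matches are descriptions too. None of the searched motifs were in the Fos window, nor in the windows of Fosb, Fosl2, Junb and Jund. The Jund window (chr8:70697489-70697738) ends well before the GENCODE start of Jund at 70698949, so the bases just before that start were not searched. The Fosl2 window (chr5:32136222-32136471) lies inside its GENCODE gene model, which starts at 32135801. Sites with other letters, or farther upstream than 250 bases, were not searched. TGACTCA was in 4.46%, TGACGTCA in 1.55% and GCGTGGGCG in 0.536% of all windows. A match describes letters and was not tested as a binding site.

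Under H2O2, 7 members were called higher in knockout than in wild-type cells and Fosl2 lower, against 65.4% of all tested genes called, 33.0% higher and 32.4% lower. Libraries did not overlap for 9 members, against 66.4% of all tested genes. Both counts include Fos and Egr1, which passed the low-count filter through the knockout groups. As without oxidant, these counts are descriptions and support nothing. Egr2 had 5.35, 4.33 and 4.66 CPM in the treated knockout libraries, against 0.755, 0.809, 1.19 and 0.934 CPM in the treated wild-type libraries. The groups stood apart as without oxidant, with a log2 difference of 2.38 (SE 0.192, edgeR's quasi-likelihood test with Benjamini-Hochberg adjustment, adjusted p = 1.31e-11). Egr1 had 1.60, 1.44 and 0.900 CPM in the treated knockout libraries, against 0.189, 0.249, 0.223 and 0.287 CPM in the treated wild-type libraries. Its knockout libraries were all higher, and as a description 55 summed reads in knockout libraries stood against 14 in wild-type libraries, a ratio of 5.66 with a 95% exact interval of 3.11 to 11.0.

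Egr3 ran from 6.60 to 8.38 CPM in treated knockout libraries, against 1.70 to 2.49 CPM in treated wild-type libraries, with a log2 difference of 1.85 (SE 0.152, edgeR's quasi-likelihood test with Benjamini-Hochberg adjustment, adjusted p = 1.91e-11). Fos ran from 0.961 to 1.53 CPM in treated knockout libraries, against 0.0718 to 0.498 CPM in treated wild-type libraries, with no overlap. The lowest of these wild-type values was a single read. On 48 and 19 summed reads the ratio of Fos, likewise a description, was 3.64 with a 95% exact interval of 2.10 to 6.56.

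Junb had 71.3, 52.3 and 56.1 CPM in the treated knockout libraries, against 36.3, 38.7, 39.1 and 41.2 CPM in the treated wild-type libraries. No library overlapped here, and the log2 difference was 0.63 (SE 0.180, edgeR's quasi-likelihood test with Benjamini-Hochberg adjustment, adjusted p = 0.00892). Jun, with a log2 difference of 0.39, and Fosl2, with −0.23, were also called, at adjusted p = 0.00196 and 0.00146 by the same test. Fosl1 had a smaller log2 difference of 0.18 (SE 0.0635, same test, adjusted p = 0.0141), and its ratio to Fosl2 was 2.24 to 2.47 in treated knockout libraries, against 1.60 to 1.88 in treated wild-type libraries. Fosb had 2.15, 2.82 and 2.05 CPM in the treated knockout libraries, against 1.70, 1.31, 1.63 and 1.80 CPM in the treated wild-type libraries. Its groups did not overlap, yet its log2 difference of 0.55 missed the threshold (95% interval 0.04 to 1.05, same test, adjusted p = 0.0530).

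Within-family proportions with H2O2 were set apart by genotype in the same direction as without it. Per unit length, Junb exceeded Jund in 3 of 3 treated knockout libraries and in 0 of 4 treated wild-type libraries, with ratios of 1.40 to 1.77 in treated knockout libraries, against 0.871 to 0.914 in treated wild-type libraries. Fosl1 made up 68.9% ± 0.894 of the summed FOS level in treated knockout cells (SD, n = 3) and 63.3% ± 1.79 in treated wild-type cells (SD, n = 4). The 3 EGR transcripts summed to 2.86 ± 0.0386 RPKM in treated knockout cells and 0.688 ± 0.0991 RPKM in treated wild-type cells. In level, treated knockout cells kept Fosl1 first at 29.6 RPKM and Junb next at 21.0 RPKM, and Egr1 was lowest at 0.215 RPKM. In treated wild-type cells Fosl1 led at 26.6 RPKM, followed by Jund at 15.6 RPKM, and Fos at 0.0971 RPKM and Egr1 at 0.0395 RPKM came last and overlapped.

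With H2O2, leaving out single libraries moved 4 members across the threshold. Without treated knockout replicate 5, the highest of its group for Junb and Fosl1, edgeR's quasi-likelihood test with Benjamini-Hochberg adjustment gave an adjusted p of 0.0531 for Junb and 0.0888 for Fosl1, with log2 differences of 0.48 and 0.15 in place of 0.63 and 0.18. Jund, not called with all libraries, was then called lower at 0.0117. Without treated wild-type replicate 13 the adjusted p of Fosl1 was 0.0629. Fosb, also not called with all libraries, was called higher without untreated knockout replicate 3 (adjusted p = 0.0438), without untreated wild-type replicate 9 (0.0456) and without untreated wild-type replicate 11 (0.0483). Jund was also called lower without untreated knockout replicate 3 (0.0256).

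H2O2 itself was not accompanied by a called change of any member. In knockout cells 0 of the 10 members passed edgeR's quasi-likelihood test with Benjamini-Hochberg adjustment, against 0.0535% of all tested genes, and 1 member had an unadjusted p below 0.05, as did 7.96% of all tested genes. In wild-type cells 0 members passed, against 0.0153% of all tested genes, and 0 had an unadjusted p below 0.05, as did 6.47% of all tested genes. DESeq2 called 0 members in either genotype. Log2 differences of H2O2-treated over untreated cells ran from −0.32 to 0.37 in knockout cells and from −0.51 to 0.12 in wild-type cells.

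The member with the small unadjusted p was Jund. It had 40.5, 35.4 and 30.0 CPM in the H2O2-treated knockout libraries, against 39.4, 43.3, 52.0 and 41.9 CPM in the untreated knockout libraries, which overlap in the highest treated library. Its log2 difference was −0.32 with a 95% interval of −0.55 to −0.09 (edgeR's quasi-likelihood test, unadjusted p = 0.00838, Benjamini-Hochberg adjusted p = 0.429). In wild-type cells Jund had 38.5, 40.2, 42.5 and 44.5 CPM with H2O2, against 41.0, 39.9, 44.7 and 48.8 CPM without it, overlapping almost throughout.

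The width of the interval around the H2O2 effect differed between members and did not follow abundance alone. For Fosl1 the 95% interval of the H2O2 effect was −0.23 to 0.03 on the log2 scale in knockout cells and −0.05 to 0.19 in wild-type cells. For Jun it was −0.17 to 0.24 in knockout cells and −0.14 to 0.25 in wild-type cells. For Junb, also abundant, it was −0.41 to 0.35 in knockout cells and −0.41 to 0.35 in wild-type cells. In knockout cells that was wider than the −0.34 to 0.28 of the rarer Egr2. For the rare Egr1 it was wider still, from −0.23 to 0.96 in knockout cells and from −1.01 to 0.99 in wild-type cells. For Fos it was −0.73 to 0.61 in knockout cells and −1.43 to 0.41 in wild-type cells.

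**Figure D3:**
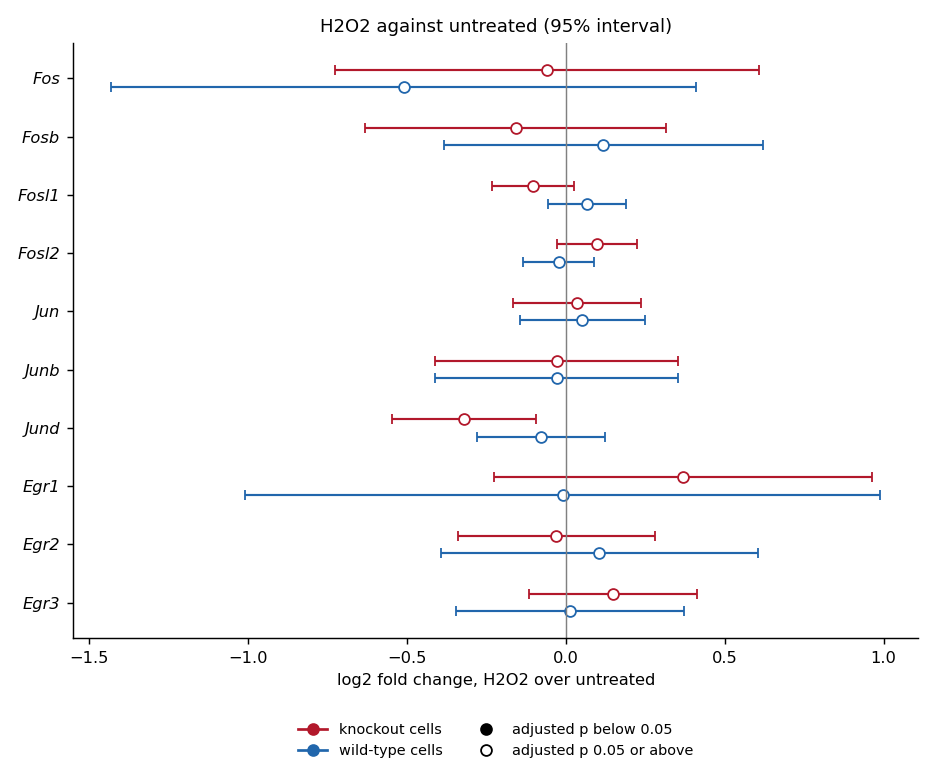
Log2 fold change of H2O2-treated over untreated cells for each member (horizontal axis, points, with 95% intervals) in knockout and wild-type cells. Every point is open, meaning an adjusted p of 0.05 or above, and Jund in knockout cells is the one interval that does not reach 0.

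The difference between genotypes in the H2O2 effect was tested as an interaction. It ran from −0.28 for Fosb to 0.45 for Fos on the log2 scale. Of the members, 0 passed edgeR's quasi-likelihood test with Benjamini-Hochberg adjustment, against 0.00% of all tested genes, and DESeq2 called 0. At an unadjusted p below 0.05 there were 0 members, and 6.18% of all tested genes. Fosl1 came closest, at −0.17 (unadjusted p = 0.0587, adjusted p = 0.811).

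Within groups, Jun and Junb varied together from library to library. In untreated knockout cells replicate 3 was the highest and replicate 4 the lowest of the group for both. Over the 15 libraries, after the group means were removed, Pearson's r between Jun and Junb was 0.87 (exact permutation p = 0.00276) and Spearman's rho was 0.80 (exact permutation p = 0.00406), both two-sided over the 82944 rearrangements within groups. Over the 45 pairs of members the adjusted values were 0.124 and 0.183, so the relation did not pass the correction. Without the 2 libraries farthest from the median of Jun, r was 0.74. Of the 45 pairs, 0 passed by either coefficient, with 4 unadjusted p-values below 0.05 by Pearson's r and 6 by Spearman's rho.

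**Figure D4:**
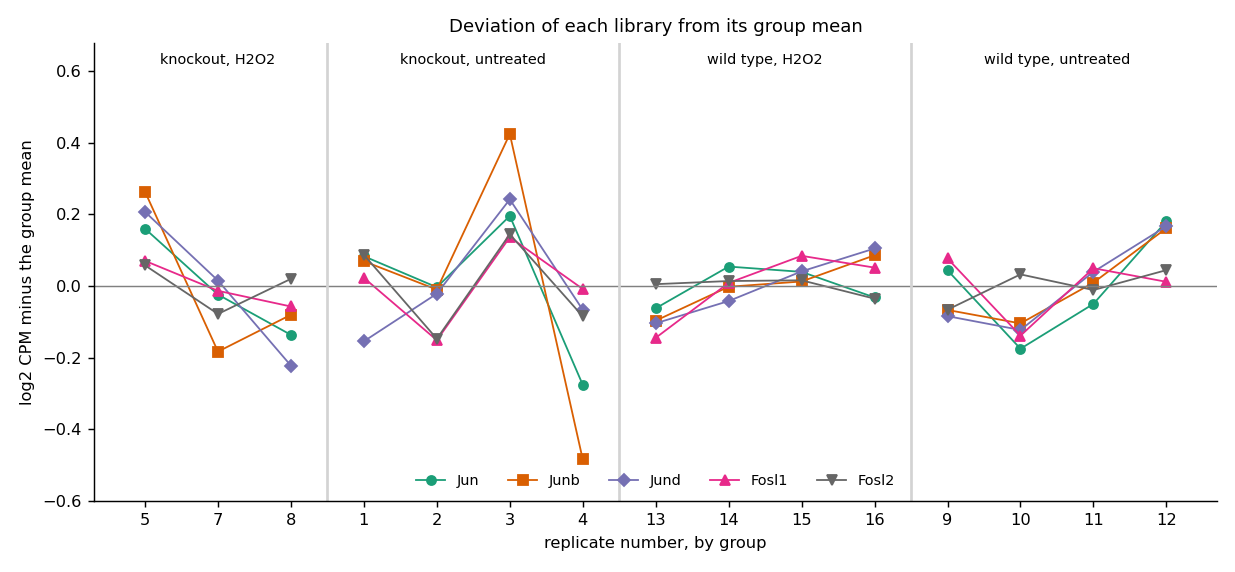
Deviation of each library from its group mean in log2 CPM (vertical axis) for the 5 members averaging at least 5 CPM over all libraries, by library and group (horizontal axis). Untreated knockout replicate 3 lies highest and replicate 4 lowest of their group for Jun and Junb.

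As a description with no test, each abundant member was set beside the genes whose deviations from the group means were most like its own over the 15 libraries, among 10191 genes averaging at least 5 CPM. Jun was most like Cep89, Kri1 and Prag1, with r of 0.90, 0.89 and 0.88. Junb was most like Cdt1, a replication licensing factor, Dvl1, a Wnt pathway protein, and Znrf1, with r of 0.92, 0.91 and 0.90. Jund was most like Pcbp1, Map1s and Mrpl12, with r of 0.94, 0.89 and 0.88. Fosl1 was most like Strada, Dusp5 and Irf8, with r of 0.90, 0.86 and 0.82, and Fosl2 was most like Smtn, Agrn and Lpcat4, with r of 0.94, 0.87 and 0.85. These r values were picked as the highest among 10191 genes, which by itself makes them high. Spearman's rho was 0.67 for Fosl1 with Dusp5, 0.74 for Fosl1 with Irf8 and 0.76 for Jund with Map1s. For the other pairs named it ran from 0.83 to 0.95. The libraries share their depth and scaling, whose part in this likeness was not tested.

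Of 13 other leucine zipper factors tested, which can pair with FOS or JUN proteins or with their partners, 7 rose and 2 fell in knockout cells without oxidant by edgeR's quasi-likelihood test with Benjamini-Hochberg adjustment. That is 69.2% called, near the 66.8% of all tested genes, with a median log2 difference of 0.27 against 0.00 over all tested genes. The rises include Batf, Batf2 and Batf3, which passed the low-count filter through the knockout groups. The count and median of this list are therefore descriptions and support nothing. Batf2, a JUN partner induced by interferon, averaged 11.0 ± 1.25 CPM in untreated knockout cells and 0.302 ± 0.153 CPM in untreated wild-type cells (SD, n = 4 each). Its fitted log2 difference was 5.13, given as a description. Atf3, a stress-induced zipper factor, averaged 16.9 ± 4.84 CPM in untreated knockout cells and 8.82 ± 0.544 CPM in untreated wild-type cells, a log2 difference of 0.93. Jdp2, a repressor that dimerises with JUN, rose by 0.39. Maf fell to 3.20 ± 0.675 CPM in untreated knockout cells, against 8.41 ± 0.618 CPM in untreated wild-type cells, a log2 difference of −1.39.

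Both NAB corepressors of the EGR factors were called higher, while 66.8% of all tested genes were called and 33.9% were higher. With 2 genes this count is a description. Nab2, itself an EGR target, averaged 49.4 ± 2.67 CPM in untreated knockout cells and 31.6 ± 0.219 CPM in untreated wild-type cells, a log2 difference of 0.65. Nab1 averaged 114 ± 6.95 CPM in untreated knockout cells and 82.2 ± 1.14 CPM in untreated wild-type cells, a log2 difference of 0.48. The fourth EGR gene, Egr4, had 0 reads in all 15 libraries, and Wt1 had too few reads to test.

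Of 21 transcription factors and kinases upstream of the members, 10 rose and 4 fell, with a median log2 difference of 0.07. The 66.7% called is about the 66.8% over all tested genes, so the count is no result about these genes. Rps6ka5, which encodes the histone kinase MSK1, rose by 0.96, to 22.2 ± 2.95 CPM in untreated knockout cells, against 11.4 ± 0.466 CPM in untreated wild-type cells. Mapk3, which encodes ERK1, rose by 0.56, and Mapk8, which encodes JNK1, rose by 0.47. Elk1, an SRF partner at immediate early promoters, had a log2 difference of −0.49, with 32.7 ± 1.59 CPM in untreated knockout cells and 46.1 ± 2.23 CPM in untreated wild-type cells. Rps6ka4, encoding MSK2, and Mrtfb, an actin-regulated SRF cofactor, were also called lower, with log2 differences of −0.42 and −0.32. Kinase activity was not measured.

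Of 29 tested immediate early genes outside the AP-1 and EGR families, 19 rose and 4 fell, which is 79.3% called against 66.8% of all tested genes, with a median log2 difference of 0.47. Ier3, a stress-inducible survival gene, averaged 256 ± 72.0 CPM in untreated knockout cells and 72.3 ± 6.92 CPM in untreated wild-type cells, a log2 difference of 1.82. Nr4a1, an orphan nuclear receptor gene, averaged 5.02 ± 0.440 CPM in untreated knockout cells and 1.78 ± 0.240 CPM in untreated wild-type cells. Btg2, an antiproliferative gene, averaged 9.21 ± 2.54 CPM in untreated knockout cells and 3.76 ± 0.321 CPM in untreated wild-type cells. The direction was not uniform, since Ccn2, a matricellular target of SRF and YAP, fell to 0.720 ± 0.305 CPM in untreated knockout cells, against 5.59 ± 0.822 CPM in untreated wild-type cells, a log2 difference of −2.92. Klf10 and Dusp5 were also called lower, with log2 differences of −0.35 and −0.21.

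**Figure D5:**
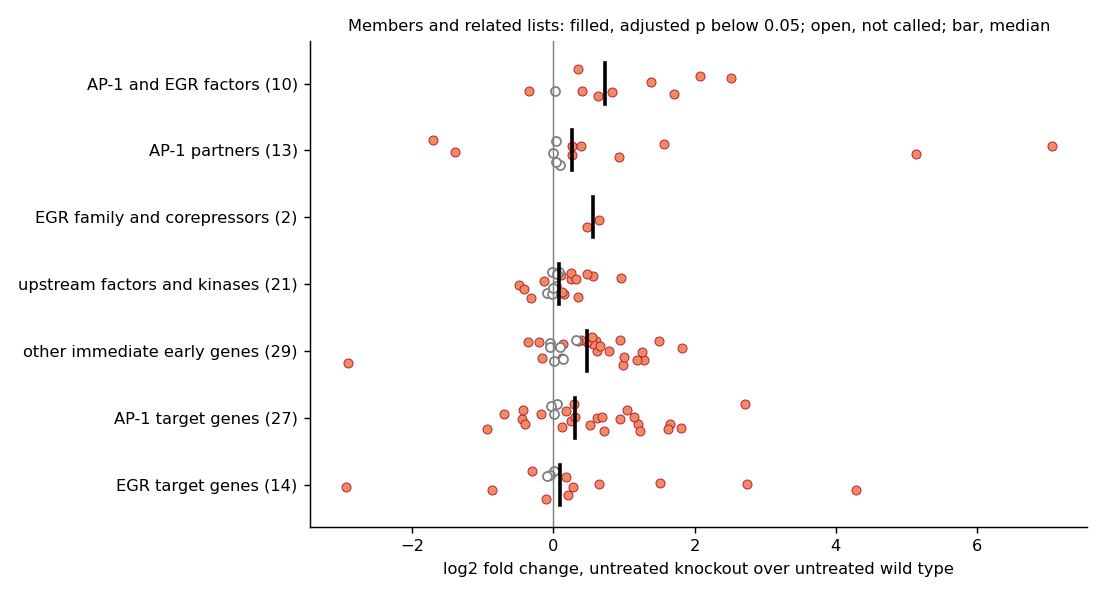
Log2 fold change of untreated knockout over untreated wild-type cells (horizontal axis) for the 10 members and for each tested gene of 6 related lists (rows), filled where the adjusted p was below 0.05, with a bar at each median. The median is 0.73 for the members and between 0.07 and 0.56 for the lists, and the list of AP-1 target genes has called genes on both sides of 0; the rightmost point, Batf, had 0 reads in the untreated wild-type libraries, so its place is no measure of size.

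Genes described as AP-1 targets changed in both directions. Of 27 tested, 18 rose and 6 fell, which is 88.9% called against 66.8% of all tested genes, with a median log2 difference of 0.31. The rises include Tnc, at 0.376 CPM in untreated wild-type cells, which passed the low-count filter through the knockout groups. The count is therefore a description. Il11, an IL-6 family cytokine, averaged 27.4 ± 5.96 CPM in untreated knockout cells and 4.17 ± 0.825 CPM in untreated wild-type cells, a log2 difference of 2.71. Spp1, which encodes osteopontin, averaged 2682 ± 273 CPM in untreated knockout cells and 767 ± 39.2 CPM in untreated wild-type cells, a log2 difference of 1.81. The stromelysin gene Mmp3 rose by 1.66, whereas the collagenase gene Mmp13 and the second stromelysin gene Mmp10 had log2 differences of −0.94 and −0.44. Hmox1, which encodes the heme-degrading enzyme heme oxygenase, had a log2 difference of −0.70.

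Genes described as EGR targets were also mixed, with 7 of 14 tested higher and 4 lower, which is 78.6% called against 66.8% of all tested genes, and a median log2 difference of 0.09. The rises include Icam1, at 0.168 CPM in untreated wild-type cells, which passed the low-count filter through the knockout groups. This count too is a description. Fn1, which encodes fibronectin, averaged 232 ± 46.1 CPM in untreated knockout cells and 34.7 ± 1.10 CPM in untreated wild-type cells, a log2 difference of 2.74. Flt1, which encodes a VEGF receptor, rose by 1.50. F3, which encodes tissue factor, had a log2 difference of −2.94, with 0.900 ± 0.230 CPM in untreated knockout cells and 6.93 ± 1.43 CPM in untreated wild-type cells. Thbs1, encoding thrombospondin, was called lower, with a log2 difference of −0.87.

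With H2O2 the lists had nearly the same counts. In knockout against wild-type cells 7 partners rose and 2 fell, 9 upstream genes rose and 5 fell, 20 other immediate early genes rose and 3 fell, 17 AP-1 targets rose and 7 fell, and 7 EGR targets rose and 4 fell. In that order the shares called were 69.2%, 66.7%, 79.3%, 88.9% and 78.6%, against 65.4% of all tested genes. For partners and upstream genes the share is near that of all tested genes, so the count is no result about them. As without oxidant, the list counts are descriptions. H2O2 against untreated cells gave 0 called genes in any of these lists in either genotype by edgeR's quasi-likelihood test with Benjamini-Hochberg adjustment. At an unadjusted p below 0.05 there were 3 of 27 AP-1 targets, 2 of 13 partners, 1 of 29 other immediate early genes and 1 of 14 EGR targets in knockout cells, against 7.96% of all tested genes. In wild-type cells there were 3 of 29 other immediate early genes, 2 of 27 AP-1 targets and 1 of 14 EGR targets, against 6.47% of all tested genes, and nothing is read from these counts.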

How the data were processed

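Polyadenylated RNA was sequenced from 15 libraries in 4 groups. The deposited table holds expected counts per gene, which per the submitters' processing notes were made with cutadapt, STAR and RSEM on mm10, with versions and settings not given in the sources used here. All values are whole, so any rounding came before deposit. The authors' deposited RPKM equal the counts over the library total and a fixed number for each gene, to a relative deviation of at most 6.22e-15 over 9805 genes checked. RPKM values were used to compare levels between genes and for family sums, shares and ratios, and entered no test. They are not TMM-scaled, and TMM factors were 0.983 to 0.994 in knockout and 1.00 to 1.02 in wild-type libraries. Family sums set side by side between genotypes are therefore descriptions.

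Counts were tested with edgeR 4.0.16 (R 4.3.3, limma 3.58.1): TMM scaling, filterByExpr, which left 13085 genes with 99.9% of counts, and 1 robust quasi-likelihood model of 4 group means with 11 residual degrees of freedom. Benjamini-Hochberg adjustment ran over all tested genes, and genes with an adjusted p below 0.05 were called. Standard errors (SE) are approximate. Intervals cover 95%. CPM are TMM-scaled. Exact count intervals cover counting error only. On simulated counts with known changes in the untreated genotype comparison, the fit recovered 82.6% of 69 genes changed by 0.5 on the log2 scale, 88.7% of 62 changed by 1 and 95.7% of 69 changed by 2, over 13085 genes. Among the unchanged genes 5 were called. Far fewer genes were changed than are called in the data, and the simulated spread had no gene-specific part. The recovery therefore need not hold for the data. Replicates differed by more than sampling noise (chi-square per degree of freedom 2.07 to 8.12 over 21 pairs). The first principal component held 80.8% of the variance and separated the genotypes, and no batch is labelled.

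Alternatives were RLE scaling, no low-count filter, DESeq2 1.42.0, fits of the compared groups alone, a test against a 1.2-fold change and each library left out. From each list, the text names up to 3 genes with the highest and 3 with the lowest log2 difference among called genes with at least 5 CPM in the higher group. One gene that this rule names is not reported here. The members, lists and tests were chosen with earlier results of these data known, so no list is independent support. Figures were drawn with matplotlib 3.10.9, and permutations used numpy 2.4.6.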

Additional observations from a re-analysis of the deposited data

How the results depend on the processing

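No member reversed a called direction under any setting run. The count of members called between untreated genotypes, 9, was 9 whichever library was left out, and the count with H2O2, 8 in the report, was 7 to 10. Testing against a 1.2-fold change left 5 with H2O2, and without oxidant Fosl1 (adjusted p = 0.0506) and Jun (0.0566) missed the threshold. Jund with H2O2 was called lower by DESeq2 (0.0337) and when its groups were fitted alone (0.0295), where Fosb was called higher (0.0348). The cause was not tested. Members called for the H2O2 effect or the interaction were 0 in every setting, as were pairs of members.

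Over all tested genes the genotype counts, 8746 untreated and 8558 with H2O2, were 4818 and 4842 against a 1.2-fold change, and 8399 to 8773 and 7965 to 8639 with 1 library left out. The few H2O2 calls were unstable. In knockout cells the 7 became 27 without the low-count filter, 38 by DESeq2, 0 against a 1.2-fold change and 0 to 21 with 1 library left out. In wild-type cells the 2 became 12 without the filter, 9 by DESeq2, 0 against a 1.2-fold change, 0 with these groups fitted alone and 0 to 13 with 1 library left out. The interaction, with 0, gave 5 without the filter, 7 by DESeq2 and 0 to 3 with 1 library left out. Leaving out untreated knockout replicate 4 and untreated wild-type replicate 9 together, a setting chosen after seeing the data, gave 3 in knockout and 0 in wild-type cells. No paired analysis was possible because no replicate number is shared between groups. Depth limits Fos and Egr1 most.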

Other observations

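Among the leucine zipper partners, 2 genes below the abundance at which list genes were named were picked out after their values were seen. Batf, a JUN partner of immune cells, averaged 1.14 ± 0.380 CPM in untreated knockout cells and had 0 reads in each of the 4 untreated wild-type libraries. Batf3, its close relative, averaged 0.972 ± 0.275 CPM in untreated knockout cells and 0.321 ± 0.141 CPM in untreated wild-type cells (SD, n = 4 each). With H2O2 Batf3 averaged 0.909 ± 0.233 CPM in knockout cells (SD, n = 3) and 0.185 ± 0.0573 CPM in wild-type cells (SD, n = 4). These values are descriptions with no test.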
